A study of Homo sapiens with 9 samples.

Results

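The chromatin accessibility peaks of HEK293T cells lacking IGF2BP1 were compared directly with those of cells lacking IGF2BP3. Both peak lists were taken whole, and together they hold 94958 of the 194414 peaks in the 4 lists of the study. The IGF2BP1 knockout list holds 50917 peaks covering 47.0 Mb and the IGF2BP3 knockout list holds 44041 peaks covering 35.6 Mb. Assay for transposase-accessible chromatin by sequencing (ATAC-seq) uses the Tn5 transposase, which inserts adapters preferentially into open DNA, and a peak is a stretch where insertions pile up. Each reaction used 100000 cells. HEK293T is an established line derived from human embryonic kidney, and no treatment was given besides the gene knockout. Knockouts were made by transient transfection of a plasmid carrying 3 guide RNAs and a GFP reporter, followed by sorting of single GFP-positive cells. In each knockout 1 clone was profiled, and effects of the clone and of the genotype cannot be told apart. The IGF2BP1 knockout list rests on 3 libraries, from batches 1, 2 and 3, and the IGF2BP3 knockout list on 2 libraries, from batches 2 and 3. A control made in parallel with a guide that targets no mammalian gene has 2 libraries, from batches 2 and 3, and 39194 peaks covering 33.6 Mb. It was used to say which side resembled it. Batch 1 occurs in the IGF2BP1 knockout alone, so that batch and the genotype cannot be told apart either.

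Each group is 1 list without values per library, so the spread between replicates is not known for any difference below, and no test was made. The 95% intervals are exact binomial (Clopper-Pearson) intervals over peaks and cover counting error only. How deeply the libraries of a list were sequenced is unknown. A peak absent from a list means that the list has no interval there, not that the chromatin was closed.

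IGF2BP1 and IGF2BP3 are paralogous RNA-binding proteins of the oncofetal IGF2BP (IMP) family. They bind mRNAs through RRM and KH domains, recognise m6A-modified transcripts, and are known for stabilising or localising mRNAs such as IGF2, MYC, CD44 and ACTB. They are abundant in embryonic tissue and many tumours and act mainly in the cytoplasm, whereas ATAC-seq reads nuclear DNA. The study's title places the family in innate immune signalling, so genes of that system are described beside known mRNA targets and developmental regulators.

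Marker genes of several tissues were set against the label of the line. Of 9 kidney lineage markers, 5 had a peak within 1 kb of a gene end in each knockout list, among them LHX1, SIX2, WT1 and EMX2. These 5 (55.6%) were a smaller share than the 65.7% of all protein-coding genes with such a peak in both lists. PAX2, PAX8 and CDH16 were among those with none in either. Of 7 genes for the adrenal or neural features known in HEK293 cells, 6 had such a peak in the IGF2BP1 knockout list and 5 in the IGF2BP3 knockout list, and NEFM, NEFL, INA, NES and VIM had one in both. Those 5 were 71.4% of the 7, near the share over all genes. Of 14 markers of blood, liver, muscle and skin, 10 had none in either knockout list, among them PTPRC, ALB and KRT5. These 10 were 71.4% of the 14, against 30.5% of all protein-coding genes. The blood markers SPI1 and CD34 and the muscle marker MYOD1 had such a peak in both knockout lists. The blood marker CD3E had one in the IGF2BP1 knockout list alone.

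Promoter sequences of 7 genes whose start lay under a peak of one knockout list and no peak of the other are shown as examples of promoters that separated the 2 clones. They come from RefSeq (GRCh38.p14), end at the base before an annotated transcription start, and are written 5′ to 3′ on the strand of the gene. Capitals mark matches on either strand to the motifs searched, namely GGGCGG (the GC box), CCAAT (the CCAAT box), TATAAA (the TATA box), CACGTG (an E-box), TGACTCA (the AP-1 site), TGACGTCA (the cAMP response element), CCGGAAGT (an ETS core) and GCGCATGC (an NRF1 core), none of which contains another. The first 3 lay under a peak of the IGF2BP1 knockout list alone and the other 4 under a peak of the IGF2BP3 knockout list alone.
IGF2BP3: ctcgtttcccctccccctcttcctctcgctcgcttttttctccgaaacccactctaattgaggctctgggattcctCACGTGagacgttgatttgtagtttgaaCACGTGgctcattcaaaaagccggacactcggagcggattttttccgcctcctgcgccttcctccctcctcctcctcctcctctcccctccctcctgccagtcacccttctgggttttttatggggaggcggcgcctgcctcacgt
HAND1: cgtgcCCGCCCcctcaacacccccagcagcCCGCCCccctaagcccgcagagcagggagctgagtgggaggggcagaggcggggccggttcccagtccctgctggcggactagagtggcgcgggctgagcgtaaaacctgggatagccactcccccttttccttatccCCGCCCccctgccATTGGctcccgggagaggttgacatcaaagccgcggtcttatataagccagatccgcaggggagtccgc
SCN1A: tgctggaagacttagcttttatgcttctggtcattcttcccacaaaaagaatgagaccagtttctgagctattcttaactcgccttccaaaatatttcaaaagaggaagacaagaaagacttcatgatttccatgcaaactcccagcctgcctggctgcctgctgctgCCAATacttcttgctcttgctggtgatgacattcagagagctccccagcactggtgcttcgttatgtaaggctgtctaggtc
CD44: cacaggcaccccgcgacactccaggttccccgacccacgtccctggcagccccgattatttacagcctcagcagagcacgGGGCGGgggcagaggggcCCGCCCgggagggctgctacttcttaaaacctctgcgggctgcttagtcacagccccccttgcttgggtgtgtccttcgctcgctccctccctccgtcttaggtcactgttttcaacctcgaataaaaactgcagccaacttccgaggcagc
GATA3: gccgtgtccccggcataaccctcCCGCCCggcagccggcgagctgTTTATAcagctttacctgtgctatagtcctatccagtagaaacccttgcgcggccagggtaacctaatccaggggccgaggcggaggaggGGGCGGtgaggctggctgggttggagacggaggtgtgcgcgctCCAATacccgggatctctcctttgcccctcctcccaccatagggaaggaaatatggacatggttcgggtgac
RIMBP2: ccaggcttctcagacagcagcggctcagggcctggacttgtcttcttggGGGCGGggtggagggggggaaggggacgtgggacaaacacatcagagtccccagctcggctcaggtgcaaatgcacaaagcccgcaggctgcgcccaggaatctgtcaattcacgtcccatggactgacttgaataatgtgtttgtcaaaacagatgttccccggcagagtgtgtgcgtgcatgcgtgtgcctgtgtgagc
ISG15: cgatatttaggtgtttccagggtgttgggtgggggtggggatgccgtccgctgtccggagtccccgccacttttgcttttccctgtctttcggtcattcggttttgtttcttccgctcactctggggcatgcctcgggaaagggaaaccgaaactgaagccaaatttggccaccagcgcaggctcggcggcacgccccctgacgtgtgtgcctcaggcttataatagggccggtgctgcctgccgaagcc
The IGF2BP3 promoter (chr7:23470492-23470741, minus strand) holds 2 CACGTG matches. HAND1 (chr5:154478228-154478477, minus strand) encodes a transcription factor of heart and sympathetic development, and its promoter holds 3 GGGCGG matches and 1 CCAAT match. SCN1A (chr2:166149162-166149411, minus strand) encodes a neuronal sodium channel, and its promoter was the poorest in G and C of the 7, at 45.6%, with 2 CpG. CD44 (chr11:35138921-35139170, plus strand) encodes the hyaluronan receptor, and its promoter holds 2 GGGCGG matches and 15 CpG. The GATA3 sequence (chr10:8049604-8049853, plus strand) precedes an inner start of that zinc finger factor gene and holds matches to the GC box, the CCAAT box and the TATA box. RIMBP2 (chr12:130715574-130715823, minus strand) encodes a presynaptic scaffold, and 1 GGGCGG match lies in its promoter. ISG15 (chr1:1013247-1013496, plus strand) encodes a ubiquitin-like interferon-induced protein, and its promoter holds none of the 8 motifs.

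The targeted genes themselves differed in their peaks. At the end of IGF2BP3 where its start lies, the IGF2BP1 knockout list had a peak of 1051 bp (chr7:23470372-23471422) and the control a peak of 564 bp, while the nearest peak of the IGF2BP3 knockout list was 2.61 kb away. One further peak inside IGF2BP3 (chr7:23430231-23431487) was 1257 bp wide in the IGF2BP1 knockout list and 993 bp in the control, and was absent from the IGF2BP3 knockout list. Another peak inside the gene was in all 3 lists, with a width of 1009 bp in cells lacking IGF2BP1, 581 bp in cells lacking IGF2BP3 and 518 bp in the control. So at IGF2BP3 the list of its own knockout had 1 of the 3 peaks that the IGF2BP1 knockout and the control shared. IGF2BP1 did not show the mirror image. Its start was covered in the list of its own knockout by a peak of 2392 bp (chr17:48995288-48997679) and in the control by one of 2434 bp. In the IGF2BP3 knockout list that stretch was covered by 2 peaks, of 1850 and 519 bp. A peak of 470 bp inside IGF2BP1 (chr17:49022373-49022842) was in the IGF2BP3 knockout list alone. At the paralog IGF2BP2, intact in both clones by their labels, the IGF2BP1 knockout list had 8 peaks, the IGF2BP3 knockout list 7 and the control 4.

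**Figure D1:**
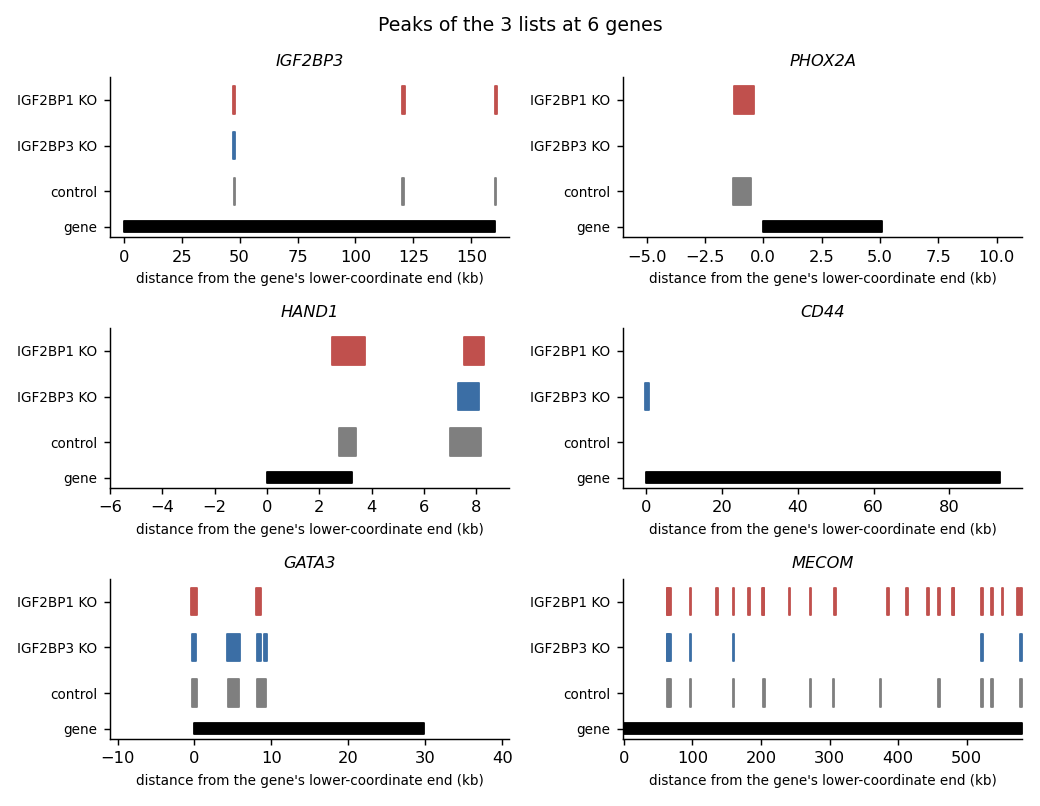
Peaks of the IGF2BP1 knockout (red), IGF2BP3 knockout (blue) and control (grey) lists at 6 genes, drawn over distance in kb from the gene's lower-coordinate end, with the gene as a black bar and very narrow peaks widened to be visible. IGF2BP3, PHOX2A and HAND1 have peaks in the IGF2BP1 knockout and control that the IGF2BP3 knockout lacks, CD44 has 1 peak in the IGF2BP3 knockout alone, and MECOM has 23 IGF2BP1 knockout peaks against 7 of the IGF2BP3 knockout.

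More of the IGF2BP1 knockout list was absent from the other list than the reverse. With 1 bp in common counting as shared, 14604 IGF2BP1 knockout peaks had no counterpart in the IGF2BP3 knockout list, 28.7% of the list (95% interval 28.3 to 29.1). In the opposite direction 7398 IGF2BP3 knockout peaks, or 16.8% (16.4 to 17.2), had no counterpart. The order did not change under any of the 5 other ways of counting, but the size of the difference did. When the IGF2BP1 knockout list was reduced to its 44041 widest peaks, the shares were 23.4% and 22.6%. When both lists were limited to peaks of at least 500 bp, they were 35.5% and 12.5%. The peaks without a counterpart were well separated from the other list, at a median distance of 20.99 kb for the IGF2BP1 knockout and 16.6 kb for the IGF2BP3 knockout. Only 388 and 334 of them lay within 1 kb of a peak of the other list, and 3368 and 1449 lay more than 50 kb away.

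Narrow peaks were more often without a counterpart than wide ones. The median width was 648 bp for IGF2BP1 knockout peaks without a counterpart and 928 bp for shared ones, and 505 against 773 bp in the IGF2BP3 knockout list. Among IGF2BP1 knockout peaks under 400 bp, 70.2% (67.9 to 72.4) had no counterpart, and among those of 1500 bp or more the share was 5.48% (4.85 to 6.17). The same shares in the IGF2BP3 knockout list were 40.0% (38.6 to 41.4) and 0.427% (0.221 to 0.745), the latter being 12 of 2811 peaks. In each width class the IGF2BP1 knockout list had the larger share.

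**Figure D2:**
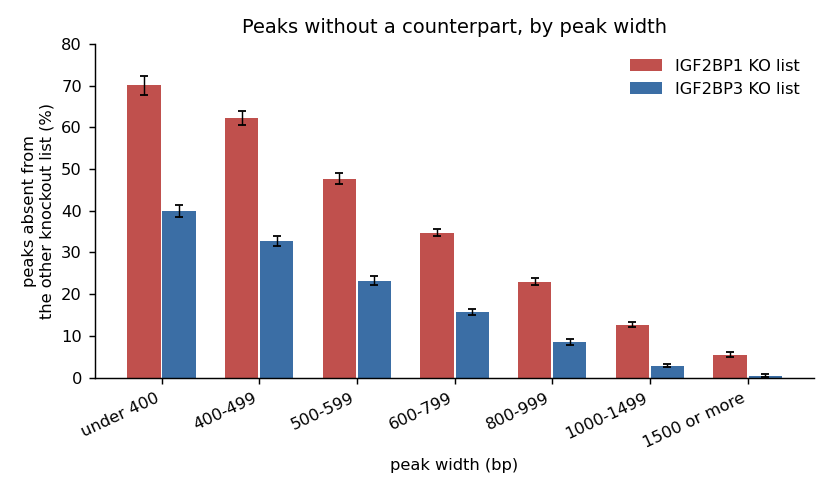
Share of peaks (%) of the IGF2BP1 knockout list (red) and the IGF2BP3 knockout list (blue) with no counterpart in the other list, by peak width in bp, with exact 95% binomial intervals over peaks as error bars. The share goes from 70.2% to 5.48% in the first list and from 40.0% to 0.427% in the second.

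Unshared peaks of the IGF2BP1 knockout were in the control more often than those of the IGF2BP3 knockout, and most on both sides were not in it. Of the 14604 peaks of the IGF2BP1 knockout list alone, 4611 overlapped a control peak, 31.6% (30.8 to 32.3). Of the 7398 peaks of the IGF2BP3 knockout list alone, 1376 did, or 18.6% (17.7 to 19.5). Peaks shared by both knockouts were in the control at 83.8% (30414 peaks) and 83.7% (30666 peaks). Over the whole lists of 50917 and 44041 peaks the order was reversed. A smaller share of the IGF2BP1 knockout list than of the IGF2BP3 knockout list overlapped the control, since more of it was unshared. Seen from the control list, 30583 of its peaks were held by both knockout lists, 4670 (11.9%) by the IGF2BP1 knockout alone, 1367 (3.49%) by the IGF2BP3 knockout alone and 2574 (6.57%) by neither. With lists of equal length the 2 shares in the control were 34.4% and 28.6%, a smaller gap in the same direction. Most peaks on either side, 9993 and 6022, were in 1 knockout list and absent from both the other and the control.

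The widest peaks of the IGF2BP1 knockout list alone lay mostly outside protein-coding genes, to which the distances below refer. Ranked by width among peaks at least 1 kb from the other list, the first was a peak of 3018 bp on chromosome 13, 145 kb from OLFM4 and 5.25 kb from the nearest IGF2BP3 knockout peak. A peak of 2497 bp (chr7:114414046-114416542) covered an inner start of FOXP2, a forkhead factor of brain development, 85.7 kb from any IGF2BP3 knockout peak. The control had a peak of 1253 bp there. Others lay 91.8 kb from CEBPB, a bZIP factor, 4.35 kb from TWIST1, a basic helix-loop-helix factor of mesoderm, and 3.55 kb from MNX1, a motor neuron homeobox gene. Their widths were 2359, 2243 and 2105 bp, and the control had no peak at any of these 3 places. The peak near TWIST1 covered an annotated start of another RefSeq gene, LOC124901597. Of the 10 widest, 6 overlapped a control peak. The other members of the 10 were 22.6 kb from PRSS16, 65.8 kb from TMEM167A, 599.2 kb from ZNF804A, 40.9 kb from LOC107983958 and inside PALM2AKAP2.

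On the IGF2BP3 knockout side the widest such peak was 2125 bp (chr12:130714771-130716895), at a start of RIMBP2, where neither the control nor the IGF2BP1 knockout list had a peak. GATA3, a factor of kidney, inner ear and T-cell development, had a peak of 1654 bp at an inner start (chr10:8049540-8051193). The control had one of 1358 bp there, and the nearest IGF2BP1 knockout peak was 2.16 kb away. At the outer start of GATA3 all 3 lists had a peak, 743 bp wide in cells lacking IGF2BP1, 481 bp in those lacking IGF2BP3 and 618 bp in the control. CYP24A1, the enzyme that degrades active vitamin D, had a peak of 1532 bp at a gene end that was in neither other list. Peaks of 1671 bp inside STARD3 and of 1640 bp at 58.6 kb from ZNF32 followed the same ranking. Those near DUX4, TP53TG3B and LOC124903442 had 1613, 1740 and 1692 bp. DUX4 and TP53TG3B belong to families of near-identical copies, so the place of those peaks is uncertain. The remaining 2 lay 1216 kb from SLITRK5 and 24.8 kb from TEX13C. Of these 10, 5 overlapped a control peak.

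Peaks without a counterpart lay mostly away from gene ends, that is, more than 1 kb from the start or end of any gene in the RefSeq table. Shared peaks were at a gene end in 42.2% (IGF2BP1 knockout) and 41.9% (IGF2BP3 knockout) of cases. Unshared peaks were there in 11.9% (11.4 to 12.4) and 12.2% (11.4 to 12.9). The 2 sides differed in the rest: 55.4% of the IGF2BP1 knockout peaks without a counterpart lay inside a gene away from its ends and 32.7% outside genes, against 47.4% and 40.4% for the IGF2BP3 knockout. Exons, introns and UTRs were not determined.

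At gene ends the lists differed for few genes. Both knockout lists had a peak at an end of 13152 of the 20033 protein-coding genes, and neither had one at 6106. The IGF2BP1 knockout list alone had one at 547 genes, 2.73% of those examined, and the IGF2BP3 knockout list alone at 228, or 1.14%. With lists of equal length these numbers were 440 and 348. The control had a gene-end peak at 245 of the 547 genes (44.8%) and at 64 of the 228 (28.1%). At 80 of the 547 and 14 of the 228 genes the peak was itself shared, and only its reach into the 1 kb differed. Limited to annotated start windows, from 250 bases before to 50 bases after a start, 350 of 15842 genes (2.21%) had a peak in the IGF2BP1 knockout list alone and 151 (0.953%) in the IGF2BP3 knockout list alone.

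Ranked by peak width, the first 15 genes on the IGF2BP1 knockout side included TP53I13, FOXH1, LAMA5, VCAN, CTXN1, ERF, C10orf71, GJA1, LMX1B, AGRP, NFIC, ARHGAP8, BRD1 and FOXD4L1. For 10 of the 15 the peak overlapped a peak of the other list that stopped short of the gene end. The 5 with no overlapping peak were CTXN1, ERF, NFIC, ARHGAP8 and BRD1. ERF, an ETS-domain repressor, had a peak of 2029 bp (chr19:42253434-42255462) at its start, 9.86 kb from any IGF2BP3 knockout peak, and the control had one of 1575 bp. BRD1, a bromodomain subunit of a histone acetyltransferase complex, had a peak of 1839 bp, 25.6 kb from the other list, with 485 bp in the control. NFIC, a nuclear factor I gene, had one of 1870 bp that the control lacked. VCAN, a matrix proteoglycan, and GJA1, the gap junction protein connexin 43, had peaks of 2141 and 1961 bp with overlapping IGF2BP3 knockout peaks beyond 1 kb. FOXD4L1 has near-identical relatives, and its peak is uncertain.

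On the IGF2BP3 knockout side the first 15 included RIMBP2, NSD1, SNU13, PDZRN4, FAM53A, SPRED2, CYP24A1, CFAP97D1, NKX6-2, B3GAT1, PTCHD1, RTL4, TRPC5 and FOXA2, and 8 of the 15 had a gene-end peak with no overlapping IGF2BP1 knockout peak. NKX6-2, a homeobox factor of neural tube and oligodendrocytes, had a peak of 1446 bp (chr10:132787135-132788580), 47.8 kb from the other list. FOXA2, a pioneer factor of endoderm, had one of 1213 bp, 1.2 kb from the other list. B3GAT1, which makes the HNK-1 carbohydrate of neural cells, had one of 1392 bp, and the control one of 826 bp. RTL4 and TRPC5, on the X chromosome, shared a peak of 1271 bp that was 63.4 kb from the other list. The control had a gene-end peak at 4 of these 15 genes, against 10 of the 15 on the IGF2BP1 knockout side.

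Among 23 genes of the IGF2BP family and its textbook mRNA targets, 15 had a gene-end peak in both lists and 5 in neither. The targeted gene IGF2BP3 and PEG10 had one in the IGF2BP1 knockout list alone (8.70%, against 2.73% of all genes). CD44 had one in the IGF2BP3 knockout list alone (4.35%, against 1.14%). PEG10, an imprinted retrotransposon-derived gene, shares a bidirectional promoter with the imprinted sarcoglycan gene SGCE. A peak of 1257 bp covered it in the IGF2BP1 knockout list (chr7:94655090-94656346) and one of 1164 bp in the control, and the nearest IGF2BP3 knockout peak was 144 kb away. At CD44 the IGF2BP3 knockout list had a peak of 1159 bp (chr11:35138836-35139994), while neither the control nor the IGF2BP1 knockout list had any peak in the gene or within 5 kb of it. The control thus sided with the IGF2BP1 knockout at both loci. PEG10 and SGCE were the only ones of 23 imprinted genes with a gene-end peak in 1 knockout list alone. They were 8.70% of that list, against 2.73% of all genes, but both counted through the same peak.

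The innate immune genes were mostly alike in presence of a peak. Over 6 lists of sensors, receptors, signalling proteins, effectors and cytokines, 177 genes in all, 108 had a gene-end peak in both knockout lists and 59 in neither. The IGF2BP1 knockout list alone had one at 7 (3.95%, against 2.73% of all genes) and the IGF2BP3 knockout list alone at 3 (1.69%, against 1.14%). Of 28 cytosolic nucleic acid sensors and adaptors, TREX1, a DNA exonuclease that limits cGAS activity, and NLRP3, an inflammasome sensor, had a peak in the IGF2BP1 knockout list alone, of 711 and 690 bp. The NLRP3 peak also lay within 1 kb of the olfactory receptor gene OR2B11. Among receptors and signalling genes the Toll adaptor TICAM1 (469 bp) and the kinase JAK3 (430 bp) were on that side, and of 18 NF-kappaB pathway genes none was on either. Of 43 interferon-stimulated effectors 28 had a peak in both lists. IFI44L (1321 bp) and GBP1, an interferon-induced GTPase (912 bp), had one in the IGF2BP1 knockout list alone, and ISG15 (539 bp) and IFI35 (573 bp) in the IGF2BP3 knockout list alone. For cytokines the chemokine genes divided as well, with CX3CL1 (778 bp) on the IGF2BP1 knockout side and CCL2 (756 bp) on the IGF2BP3 knockout side. The control had a peak at TICAM1, IFI44L and IFI35 and none at the other 7 of these 10 genes. Many of these peaks were narrow, and at ISG15 the peak overlapped most of the promoter printed above.

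Neuronal transcription factors differed at a larger share of genes than the whole gene table did. Of 49, 38 had a gene-end peak in both lists, 5 (10.2%) in the IGF2BP1 knockout list alone and 2 (4.08%) in the IGF2BP3 knockout list alone. PHOX2A, a homeobox gene of autonomic neurons, and HAND1, which acts in the same lineage, were on the IGF2BP1 knockout side. PHOX2A had a peak of 846 bp (chr11:72237842-72238687), 13.7 kb from any IGF2BP3 knockout peak, and the control had one of 787 bp. The HAND1 peak was 1264 bp (chr5:154477458-154478721) against 686 bp in the control, and a second peak beyond the gene was in all 3 lists. NEUROD1 (478 bp) and MYT1L (817 bp), regulators of neuronal differentiation, were also on that side, and NEUROD2 (979 bp) and PAX7 (517 bp) made up the other. The control had a gene-end peak at 4 of the 5 genes and at neither of the 2.

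Other lists of regulators had at most 3 genes on a side, to be read against 2.73% of all genes in the IGF2BP1 knockout list alone and 1.14% in the IGF2BP3 knockout list alone. Of 50 SOX, T-box, GATA and FOX genes, SOX18 (894 bp), SOX30 (668 bp) and TBX4 (1202 bp) had a gene-end peak in the IGF2BP1 knockout list alone, and FOXA2 and GATA4 (379 bp) in the IGF2BP3 knockout list alone. Of 32 kidney developmental factors, FOXC1 (534 bp) was on the first side and OSR1 (681 bp) and EYA1 (662 bp) on the second. Of 39 HOX genes, HOXA9 (1473 bp) and HOXA2 (1276 bp) had a peak in the IGF2BP1 knockout list alone, both also in the control, and 25 had one in both knockout lists. Of 40 TGF-beta and BMP genes, the ligands INHBB, BMP5 and NODAL had one in the IGF2BP1 knockout list alone, of 764, 685 and 448 bp. Of 52 WNT genes, the ligands WNT7B and WNT5A and the antagonist SFRP2 were on that side, of 1316, 477 and 1450 bp, and the antagonist SFRP1 on the other (450 bp). FGF17 was the 1 gene of 29 FGF genes with a difference, in the IGF2BP1 knockout list alone. Among 29 AP-1 and immediate early genes, EGR3 and MAFK were in the IGF2BP1 knockout list alone and IER2 in the IGF2BP3 knockout list alone, and the control had a peak at all 3. At TBX4, WNT7B, SFRP2 and EGR3 the peak itself overlapped one of the IGF2BP3 knockout list, and only its reach into the 1 kb differed.

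Neuronal adhesion and channel genes divided evenly, with 6 of 71 (8.45%) on each side. The IGF2BP1 knockout list alone had a gene-end peak at the cadherins CDH8 (1233 bp) and CDH18 (792 bp), the sodium channels SCN1A (1205 bp) and SCN3A (561 bp), the potassium channel KCNH7 (1044 bp) and the netrin receptor DCC (679 bp). At SCN1A it had 3 peaks in all and the IGF2BP3 knockout and control lists had none. The control had no peak at the end of any of the 6. The genes with one in the IGF2BP3 knockout list alone included the glutamate receptor GRIK1 (871 bp), the synaptic adhesion genes NRXN3 (725 bp) and TENM2 (579 bp), CSMD2 (534 bp) and PCDH7 (401 bp), with PCDH7 also in the control. Among 53 clustered protocadherins, PCDHA5, PCDHA8 and PCDHB2 were on the IGF2BP1 knockout side, at 687, 1037 and 962 bp. Protocadherins of a cluster resemble each other in sequence.

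Housekeeping and multigene families differed at few genes. Of 80 cytosolic ribosomal protein genes 76 had a gene-end peak in both lists. RPS2 (1040 bp), RPL35A (1000 bp) and RPL36 (440 bp) had one in the IGF2BP1 knockout list alone, with RPS2 and RPL35A also in the control. None of 69 canonical histone genes differed. Of 510 zinc finger genes named ZNF, 12 (2.35%) were in the IGF2BP1 knockout list alone and 4 (0.784%) in the IGF2BP3 knockout list alone, close to the 2.73% and 1.14% of all genes. The widest on each side were ZNF532 (1352 bp) and ZNF287 (754 bp). Keratin and keratin-associated genes had 4 of 149 (2.68%) in the IGF2BP3 knockout list alone, all on chromosome 21, namely KRTAP10-2, KRTAP10-10, KRTAP11-1 and KRTAP19-1, and KRTAP5-11 in the IGF2BP1 knockout list alone. Olfactory receptor genes had 5 (1.28%) and 2 of 392, led by OR6B3 (1008 bp) and OR10G8 (573 bp). Of 57 cancer-testis antigen genes, GAGE2A (948 bp) and XAGE1B (496 bp) were in the IGF2BP1 knockout list alone. Both are near-identical to neighbouring copies, so their peaks are uncertain.

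Genes were also ranked by the number of unshared peaks in their bodies, an order that favours long genes. There were 4378 protein-coding genes with at least 1 peak of the IGF2BP1 knockout list alone in their body and 213 with 5 or more. The corresponding numbers for the IGF2BP3 knockout list were 2327 and 40. WWOX, a large oxidoreductase gene at a common fragile site, held 26 IGF2BP1 knockout peaks, 6 IGF2BP3 knockout peaks and 12 control peaks. Of the 26, 20 had no counterpart in the IGF2BP3 knockout list, and all 6 of the latter were shared. MECOM, a zinc finger factor of blood stem cells, had 23, 7 and 12 peaks, with 16 in the IGF2BP1 knockout list alone. AUTS2, a neurodevelopmental gene, had 32, 13 and 26 peaks with 19 in that list alone, of which 12 were in the control. FOXP1 had 18, GALNTL6 18 and NKAIN2 17 such peaks. RANBP2 had 19, over an interval of 1123 kb in the RefSeq table.

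On the IGF2BP3 knockout side CHRM3, a muscarinic acetylcholine receptor gene, held 19 IGF2BP3 knockout peaks, 9 IGF2BP1 knockout peaks and 6 control peaks, and 12 of the 19 were in that list alone. IL1RAPL2 on the X chromosome had 20, 8 and 6, also with 12. HPSE2, a heparanase relative, had 10 in that list alone and 3 in the other. The chromosome 13 genes PCDH9, GPC5 and GPC6, a protocadherin and a pair of glypicans, carried many unshared peaks of both lists. PCDH9 had 13 of the IGF2BP1 knockout and 14 of the IGF2BP3 knockout, GPC5 had 14 and 13, and GPC6 had 13 and 11. In all, PCDH9 held 58 IGF2BP1 knockout, 61 IGF2BP3 knockout and 32 control peaks. In the same order GPC5 held 46, 46 and 17, and GPC6 41, 41 and 12. LRMDA (7 and 11) and CNTNAP2, a neurexin-like adhesion gene (10 and 8), were likewise mixed.

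**Figure D3:**
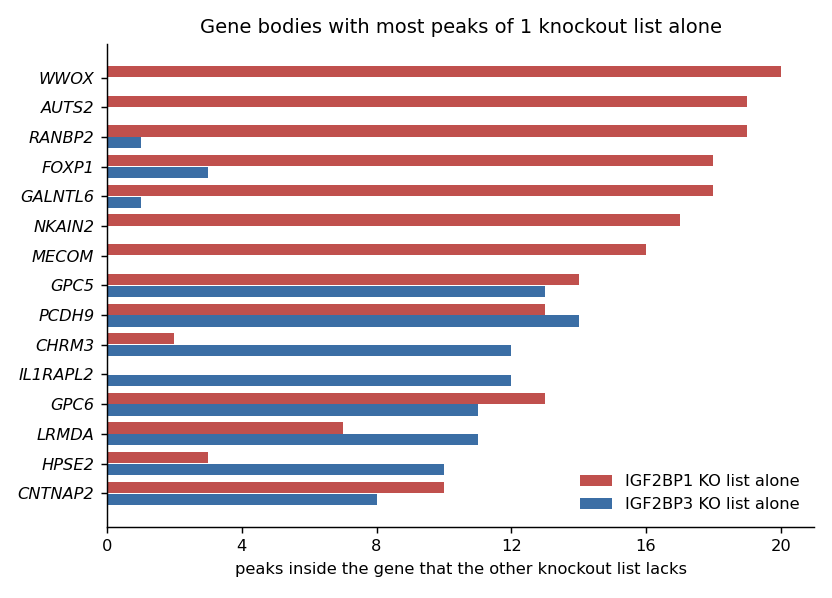
Number of peaks inside the gene that only the IGF2BP1 knockout list (red) or only the IGF2BP3 knockout list (blue) holds, for the 8 genes with most on each side, of which GPC5 is on both. WWOX has 20 and 0, IL1RAPL2 has 0 and 12, and GPC5 has 14 and 13.

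Shared peaks were wider in the IGF2BP1 knockout list. Over 35758 pairs in which 1 peak of each list overlapped 1 of the other, the median log2 width ratio, IGF2BP1 knockout over IGF2BP3 knockout, was 0.19, or 1.14-fold, and 77.3% of pairs were wider in the IGF2BP1 knockout. The quartiles were 0.02 and 0.45. The peaks reached a median of 42 bp further at the lower and 41 bp further at the higher coordinate. The median was 0.12 within 1 kb of a gene end and 0.25 elsewhere, and it went from 0.36 for pairs with a mean width under 600 bp to 0.06 for those of 1500 bp or more. Pairs absent from the control had 0.32. A width ratio of 1.5 or more in favour of the IGF2BP1 knockout occurred at 6053 pairs (16.9%), and in favour of the IGF2BP3 knockout at 401 (1.12%).

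**Figure D4:**
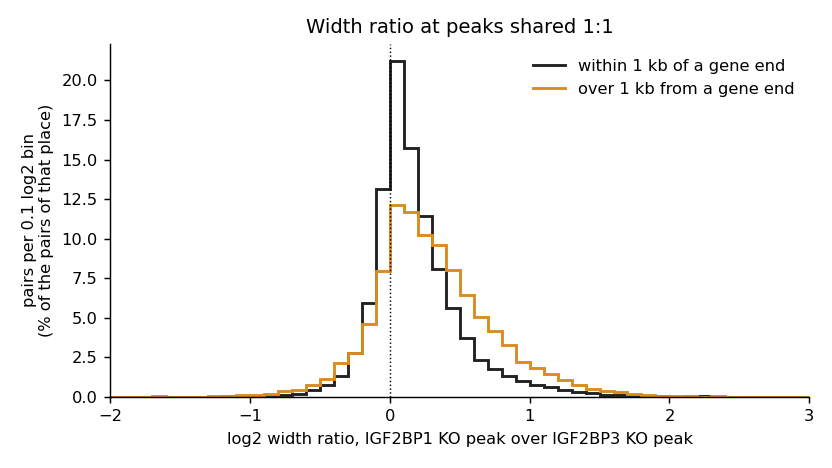
Distribution of the log2 width ratio, IGF2BP1 knockout over IGF2BP3 knockout, at shared pairs within 1 kb of a gene end (black) and further away (orange), as a percentage of the pairs of that place per bin; the dotted line marks equal width. The medians, 0.12 and 0.25, lie to the right of equal width, and 74.8% and 79.0% of the pairs were wider in the IGF2BP1 knockout.

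In median width the control was closer to the IGF2BP3 knockout, but pair by pair it was nearer to each knockout about equally often. At the 29588 pairs with 1 control peak, its width was nearer to that of cells lacking IGF2BP1 in 49.8% and to that of cells lacking IGF2BP3 in 50.2%, on the log scale. At these pairs the median IGF2BP1 knockout width was 974 bp, the median IGF2BP3 knockout width 835 bp and the median control width 864 bp. The median log2 width ratio to the control was 0.12 for the IGF2BP1 knockout and -0.03 for the IGF2BP3 knockout. Where the peak was at least 1.5-fold wider in the IGF2BP1 knockout, the control was nearer to the IGF2BP1 knockout in 55.2%. Where it was at least 1.5-fold wider in the IGF2BP3 knockout, the control was nearer to the narrower IGF2BP1 knockout peak in 69.6%.

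The largest width ratios were at LAMA5, a laminin chain gene, where the IGF2BP1 knockout peak was 2614 bp wide, the IGF2BP3 knockout peak 339 bp and the control peak 1705 bp, a 7.71-fold ratio. The IGF2BP3 knockout peak covered only part of that stretch (chr20:62365726-62368339). At TRPM3, a cation channel gene, the widths were 1752, 332 and 1858 bp in the same order. At STOX2 they were 1781, 358 and 1490 bp, at COLEC11 1270, 244 and 1168 bp, and at MPPED2 2207, 433 and 673 bp. At DENND2B (1768 and 271 bp), RIPOR2 (1347 and 271 bp) and a place 264 kb from CSNK1G3 (1773 and 285 bp) the control had no single matching peak. In the opposite direction MYLK3, a cardiac myosin kinase gene, had an IGF2BP1 knockout peak of 655 bp under an IGF2BP3 knockout peak of 2381 bp. NHLRC2 had 373 and 1203 bp with 1068 bp in the control. CPEB3, an RNA-binding translation regulator, had 368 and 1235 bp. A peak 1.01 kb from SLC22A8 had 284 and 1019 bp, and one 33.1 kb from PRMT2 had 353 and 1556 bp with 392 bp in the control. The other 3 on that side were 588 kb from LOC112267897, 122 kb from LOC647264 and 685 kb from ZNF33B, with 485 and 1945 bp, 306 and 1036 bp, and 244 and 923 bp.

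Among the gene lists, width at gene ends leaned to the IGF2BP1 knockout as it did over all genes, where the median log2 ratio of gene-end pairs was 0.11 and 944 of 11753 pairs (8.03%) were at least 1.5-fold wider in it. For interferon-stimulated effectors the median was 0.13, and 5 of 29 pairs were past that ratio, among them MX1, an antiviral GTPase (924 against 482 bp), and USP18, which removes ISG15 (1425 against 821 bp). The transcription factor IRF7 (815 against 378 bp), the RNA sensor TLR3 (760 against 379 bp) and the 2′-5′ oligoadenylate synthetase-like gene OASL (812 against 415 bp) were also wider in the IGF2BP1 knockout. IL6, the inflammatory cytokine gene, had 1628 against 617 bp, with 1674 bp in the control. The control was also nearer to the IGF2BP1 knockout at MX1 (840 bp), OASL (750 bp) and IRF7 (626 bp). At USP18 (777 bp) and TLR3 (497 bp) it was nearer to the IGF2BP3 knockout. For SOX, T-box, GATA and FOX genes the median was 0.21 and 7 of 35 pairs were past 1.5-fold, led by FOXL2 (961 against 312 bp) and FOXA1 (1428 against 530 bp). Among the adrenal or neural genes 2 of 5 pairs were past it, including NES with 1059 against 445 bp and 1111 bp in the control. FGF1 (1812 against 648 bp), the BMP and activin antagonist gene FST (1327 against 501 bp), BCL11A (2006 against 845 bp) and ZNF316 (1723 against 431 bp) were the widest ratios of their lists. At FGF1, FST, BCL11A and ZNF316 the control had 518, 750, 987 and 520 bp, and at FOXL2 528 bp. All of these control widths were nearer to the IGF2BP3 knockout. At FOXA1 the control had no single matching peak.

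Of the 15007 shared pairs within 1 kb of a gene end, 90 (0.600%) were at least 1.5-fold wider in the IGF2BP3 knockout and 1464 (9.76%) in the IGF2BP1 knockout. FOS, the immediate early AP-1 gene, had 2548 bp in that list and 1387 bp in the IGF2BP1 knockout list, with 2518 bp in the control. EGR2 had 902 against 488 bp with 744 bp in the control, while FOSB went the other way, with a peak of 2714 bp in the IGF2BP1 knockout list, 2.72-fold wider than in the other. LEF1, a nuclear effector of WNT signalling, had a peak of 1618 bp against 566 bp, with 635 bp in the control, and a neighbouring peak of 645 bp against 995 bp. The keratin KRT16 had 744 against 416 bp. So immediate early genes were not all wider on one side, and the control was nearer to the IGF2BP3 knockout at FOS.

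The chromosomes differed in their share of peaks. A log2 ratio of shares past 0.32 either way, IGF2BP1 knockout over IGF2BP3 knockout, was found for 3 of 23 chromosomes. Chromosome 2 held 3889 IGF2BP1 knockout peaks (7.64% of the list) and 2462 IGF2BP3 knockout peaks (5.59%), a ratio of 1.37, and the control share, 7.18%, was nearer to the IGF2BP1 knockout. On it 1679 peaks were in the IGF2BP1 knockout list alone and 227 in the IGF2BP3 knockout list alone. Chromosome 17 held 3.52% and 4.73%, a ratio of 0.744, and there the control, at 4.74%, was nearer to the IGF2BP3 knockout. Its unshared peaks numbered 177 and 454, so the order of the whole lists was turned around. Chromosome 21 held 1.26% and 1.62%, with 1.23% in the control. The unshared IGF2BP3 knockout peaks outnumbered the others on 6 chromosomes, namely 10, 13, 15, 17, 21 and X. The control share was nearer to the IGF2BP1 knockout on 14 chromosomes and nearer to the IGF2BP3 knockout on 9.

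**Figure D5:**
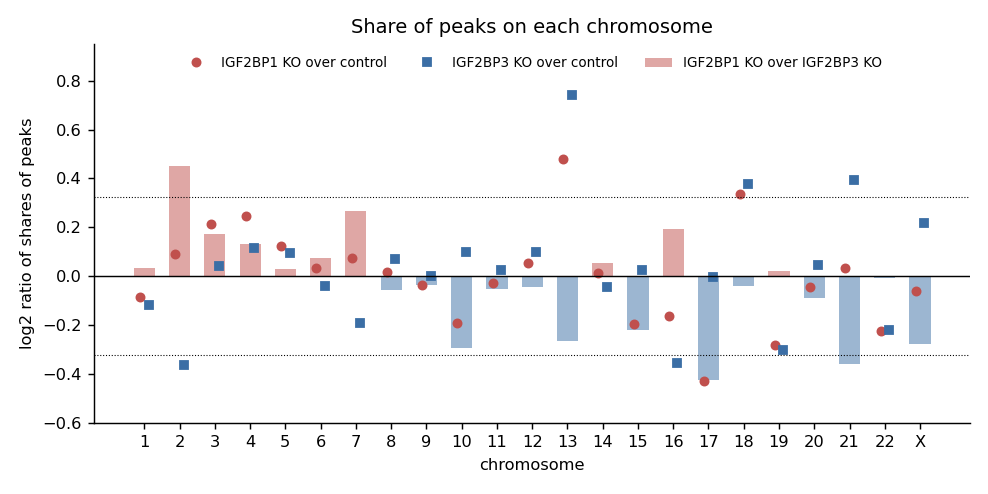
Log2 ratio of the share of peaks on each chromosome: bars give IGF2BP1 knockout over IGF2BP3 knockout (red above 0, blue below), circles IGF2BP1 knockout over control, squares IGF2BP3 knockout over control, and dotted lines mark a log2 ratio of 0.32 either way. Bars of chromosomes 2, 17 and 21 pass the dotted lines, and on chromosome 13 both knockouts lie above the control.

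These chromosome differences lay away from genes' ends. Counting gene-end peaks alone, 0 chromosomes were past that limit, with ratios of 1.09 for chromosome 2 and 0.885 for chromosome 17. Counting the other peaks alone, 8 were past it, and the ratios were 1.56 and 0.658. The X chromosome was past it as well when lists of equal length or peaks of at least 500 bp were used, and chromosome 21 was not with peaks of at least 500 bp. Width at shared pairs moved with the share of peaks: the median log2 width ratio was 0.27 on chromosome 2 and 0.09 on chromosome 17. Over the 23 chromosomes Pearson's r of the 2 ratios was 0.85 and Spearman's rho 0.83, and r was 0.78 without chromosomes 2 and 17. This is a description, since both values come from the same peaks of the same 2 lists.

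Along chromosomes some differences were even and others were not. In 573 windows of 5 Mb with a mean of at least 20 peaks, the share was higher in the IGF2BP1 knockout in 47 of 49 windows of chromosome 2 and 14 of 15 of chromosome 16. It was higher in the IGF2BP3 knockout in 17 of 17 windows of chromosome 17, 27 of 27 of chromosome 10 and 8 of 8 of chromosome 21. The 5 windows with the largest log2 ratio were all on chromosome 2, from 50 to 55, 140 to 145, 160 to 165, 210 to 215 and 220 to 225 Mb, with values from 0.94 to 1.09. The window from 220 to 225 Mb held 84 IGF2BP1 knockout, 34 IGF2BP3 knockout and 52 control peaks. The 5 with the lowest were on X (110 to 115, 120 to 125 and 125 to 130 Mb), on 17 (20 to 25 Mb) and on 13 (60 to 65 Mb), from -0.93 to -0.73. The X window from 120 to 125 Mb held 53, 85 and 38 peaks. The control share was nearer to the IGF2BP1 knockout in 279 windows and to the IGF2BP3 knockout in 294.

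Between stretches of a chromosome, chosen after their values were seen, the ratio of shares moved across 1 on chromosomes 13 and 7 and differed in size on 15, X and 2. On chromosome 13 the part from 60 to 95 Mb held 970 IGF2BP1 knockout and 1221 IGF2BP3 knockout peaks, a ratio of shares of 0.687, whereas from 15 to 60 Mb the ratio was 1.12 and from 95 to 120 Mb 1.01. The control had 380 peaks from 60 to 95 Mb. Both knockouts lay above its share there, at 1.96 times for the IGF2BP1 knockout and 2.86 times for the IGF2BP3 knockout. In the part from 60 to 95 Mb 265 peaks were in the IGF2BP1 knockout list alone and 512 in the IGF2BP3 knockout list alone, and this part contains PCDH9, GPC5 and GPC6. On chromosome 7 the ratio was 1.32 up to 135 Mb and 0.885 beyond. On chromosome 15 it was 0.940 up to 80 Mb and 0.728 beyond, and on X 0.951 up to 75 Mb and 0.740 beyond. On chromosome 2 it was 1.16 up to 90 Mb and 1.51 beyond. The control was nearer to the IGF2BP1 knockout in the far part of X, where that list stood at 0.961 and the IGF2BP3 knockout at 1.30 times the control share. In the far part of chromosome 15 they stood at 0.849 and 1.17.

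Part of the unshared regions of 1 list followed one another with no other region of the 2 knockout lists between them. Control peaks were not considered here and could lie between them. Of 14571 merged regions of the IGF2BP1 knockout list alone, 49.9% stood single among their neighbours, and of 7315 of the IGF2BP3 knockout list alone, 66.2% did. Runs of 5 or more numbered 126 and 42. The 2 lists together had 58232 merged regions. How many single regions and runs these numbers of regions would give in random order was not tested. The longest on the IGF2BP1 knockout side had 13 regions over 1568 kb of chromosome 2 around TMEM182, of which 5 were in the control. MECOM held a run of 12 over 298.7 kb, the thrombospondin-domain gene THSD7A one of 11 over 417 kb with 0 in the control, and the surroundings of FGF9 one of 11. The histone deacetylase HDAC9 and the receptor kinase ERBB4 held runs of 9. The longest on the IGF2BP3 knockout side had 8 regions over 357 kb of chromosome 15, from 93730630 to 94087360, with 0 in the control. Runs of 7 lay at UGT2B15, a glucuronosyltransferase gene, and at EPC1, a subunit of a histone acetyltransferase complex.

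Promoters open in 1 list alone differed in sequence from those open in both. Over 35116 annotated start windows of 300 bases, 16394 had a peak in both lists, 1012 in the IGF2BP1 knockout list alone, 378 in the IGF2BP3 knockout list alone and 17332 in neither. Median GC content was 66.7% for both, 56.0% for the IGF2BP1 knockout alone, 60% for the IGF2BP3 knockout alone and 48.7% for neither, against 58.7% over all windows. GGGCGG, the core of GC boxes, was in 72.8%, 40.7%, 47.1% and 18.8% of these classes and in 45.0% of all windows. CCGGAAGT, an ETS-type core, was in 7.89% of windows open in both, in 1.68% and 1.32% of those open in 1 list, and in 4.14% of all. TGACTCA, the AP-1 core, was in 2.68%, 6.72%, 8.73% and 6.91%, and in 4.95% of all. CACGTG, the E-box matched in the IGF2BP3 promoter printed above, was in 7.26% of all windows. CCAAT, the CCAAT box, was in 34.3%, 28.0%, 25.9% and 35.5%, and in 34.6% of all. In GC content and for GGGCGG and CCGGAAGT the unshared promoters of both knockouts lay between the shared ones and those without a peak, for TGACTCA those of the IGF2BP3 knockout lay above both, and for CCAAT both lay below. The control had a peak at 40.7% of the windows of the IGF2BP1 knockout alone and at 28.6% of those of the IGF2BP3 knockout alone.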

How the data were processed

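ATAC-seq was deposited as 4 peak lists, 1 per group, and the lists of the IGF2BP1 knockout, IGF2BP3 knockout and control were used. The values are peak start and end coordinates as deposited by the authors, in 3 columns without score or signal. The submitters' processing notes name fastp 0.24.1, BWA 0.7.17, MACS2 3.0.0, bedtools and the build GRCh38, and the peak threshold and the way libraries were combined are not given in the sources used here. Coordinates were counted from 1. Overlap, distance and width were computed with Python 3.11.15, numpy 2.4.6, pandas 2.3.3 and SciPy 1.17.1, and the interval functions were tested on simulated data. Genes and promoters come from RefSeq (GRCh38.p14), without strand or exons for genes, so planned start sites were replaced by gene ends (within 1 kb of either end) and start windows, found for 15842 of 20033 protein-coding genes. Chromosome 8 has no such windows here. Chromosome shares cover 1 to 22 and X.

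Per side, the text names the 10 widest unshared peaks at least 1 kb from the other list, the 15 genes with the widest gene-end peak in 1 list alone, the 8 most unequal widths, the 8 gene bodies with most unshared peaks, 5 windows, up to 8 members of each of 27 gene lists (1954 of 1957 entries matched) and the targeted genes. The genes with printed promoters, the width examples in gene lists and the stretches were chosen after their values were seen. Members and lists were chosen with earlier results of these data known. A few genes that these rules select are not reported here.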

Additional observations from a re-analysis of the deposited data

How the results depend on the processing

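The 8 main results were recomputed under other settings, 40 values in all. The median log2 width ratio kept its sign wherever it was recomputed. The other main results are single shares or counts, which have no direction of their own. Of the 40 values, 22 stayed within the counting interval or within 1.5 times, and 18 did not. The cause was not tested. Requiring a reciprocal overlap of 50% gave 33.3% and 22.9% of IGF2BP1 and IGF2BP3 knockout peaks without a counterpart, 23.3% of the unshared IGF2BP3 knockout peaks in the control and a median log2 width ratio of 0.17. Counting a gap of up to 500 bp as shared gave 16.4% for the IGF2BP3 knockout. With each list limited to its widest peaks, as many as the shorter list, the shares without a counterpart were 23.4% and 22.6%, those in the control 34.4% and 28.6%, the width ratio 0.19, and the genes with a gene-end peak in the IGF2BP3 knockout alone 348. Peaks of at least 500 bp gave 35.5% and 12.5%, 30.4% and 13.8% in the control, and a width ratio of 0.14. Chromosomes past the limit for shares of peaks numbered 0 among peaks at gene ends and 8 among the others. The IGF2BP1 knockout had the larger share without a counterpart, and the larger share of these in the control, under 5 of 5 settings.

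No paired analysis was possible because the lists hold no values per library. Per the labels, equal replicate numbers of the 2 knockouts also come from different batches. For the same reason no replicate was left out in turn, batches were not compared, and depth is unknown.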
